A study of Mus musculus with 12 samples.

Results

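Livers of mice injured with acetaminophen (APAP, also called paracetamol) and given human alternatively activated macrophages (hAAMs) were compared with livers of injured mice given vehicle, with a near-identical pair of libraries left out. The comparison used 7 of the 12 livers sequenced, 3 with hAAM (replicates 1, 2 and 3) and 4 with vehicle (replicates 1, 2, 4 and 5). It asked how hAAMs changed gene expression in the injured liver. The livers were selected on the data: for every pair of libraries the spread of the counts over genes was set against counting noise, and hAAM replicate 4 and vehicle replicate 3, which carry opposite labels, were left out. The spread of this pair was 1.19 times counting noise, and 0.0194% of its 15488 compared genes differed over 2-fold. The next closest pair, vehicle replicate 4 and hAAM replicate 2, lay at 2.64 times counting noise with 1.40% of genes over 2-fold. Since the counts of all genes chose the livers, and the pair removed was the closest pair across the 2 groups, every p-value below is unadjusted for that choice.

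All livers came from C57BL/6J mice by the labels, aged 10 to 12 weeks in the study's methods, which in one place name the substrain of the injected mice as C57BL6/JOlaHsd. Both injured groups received APAP, at 350 mg/kg by the labels, followed by an intravenous injection of PBS vehicle or of hAAMs. The study describes its severe model with a higher dose and shows the sequencing results in the figure on that model. It does not state separately which dose or time of collection the sequenced livers had. The 3 control livers had neither injury nor treatment and are given only as reference levels. hAAMs are grown from human CD14+ blood monocytes with CSF1, polarised with IL-4 and IL-13 and stored frozen. The reads were aligned to the mouse genome alone, so transcripts of the injected human cells were not analysed here.

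APAP is turned by cytochromes P450 of hepatocytes around the central vein into a reactive product that depletes glutathione, and these cells die by necrosis. Macrophages clear the debris while surviving hepatocytes divide, and hepatocyte functions such as lipid synthesis, drug metabolism and plasma protein secretion recover as the tissue is rebuilt. Alternatively activated macrophages are a phagocytic, pro-repair state of these cells. In bulk tissue, fewer cells of a type and less RNA per cell cannot be told apart.

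Total counts ranged from 47391650 to 55379420 in hAAM livers (median 49083309) and from 52935577 to 61826952 in vehicle livers (median 57753868). Levels are in CPM, counts scaled to a common library total with edgeR's TMM factors, and give the level of a gene relative to the library and not per length. Pairs with hAAM replicate 3 had the widest spread, up to 6.86 times counting noise with vehicle replicate 4, and its TMM factor of 0.862 was the lowest of the 7 livers. Vehicle replicate 5 stood apart in blood cell markers: its summed B lineage markers reached 93.7 CPM against 5.97 to 15.4 in the other 6 livers, and its red cell and platelet markers 2041 CPM against 285 to 744. Hepatocyte markers overlapped between the groups, at 76397 to 103951 CPM with hAAM and 71394 to 95100 with vehicle. Without vehicle replicate 5, 6 of the 9 B lineage markers and 5 of the 9 red cell and platelet markers were higher with hAAM at p under 0.05 (median log2 fold changes 1.00 and 0.74), against 0 of either with it (-0.04 and -0.30).

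Across the 22018 genes that passed the low-count filter, edgeR's quasi-likelihood test called no gene at a false discovery rate (FDR) under 0.05 (0%), and the smallest FDR was 0.323, shared by 18 genes. At an unadjusted p under 0.05 there were 1543 genes, 761 higher with hAAM (3.46% of those tested) and 782 lower (3.55%). These shares are the background for the counts of list members given below. The 3 hAAM livers lay wholly above the 4 vehicle livers for 948 genes (4.31%) and wholly below them for 879 (3.99%). Limma-voom also called 0 genes. DESeq2, the tool the study used, called 116 genes at an FDR under 0.05 on the same 7 livers, 67 higher with hAAM (0.304%) and 49 lower (0.223%). The study itself reported no significant difference in expression between its vehicle and hAAM groups. All 116 had an edgeR p under 0.05 and edgeR FDRs from 0.323 to 0.671, and 113 had groups that did not overlap. Of the 116 genes, 85 were protein-coding and 65 differed over 2-fold, 42 higher and 23 lower.

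The DESeq2 calls moved with the livers in the fit. With the near-identical pair kept, DESeq2 called 1 gene, Trim24, and with the 3 control livers added to the 7 it called 88, of which 71 were among the 116. Leaving out 1 liver at a time gave between 58 calls, without vehicle replicate 5, and 174, without hAAM replicate 3, with 46 to 64 of the 116 called again. Without hAAM replicate 3 the calls were 54 higher and 120 lower, against 67 and 49 with it. In these 7 fits 31 genes were called every time, among them Trim24, Nudt7, Scd1, Elovl3, Dbp, Egfros, Per3, Nr2f2, Lipc, Nat8, Arsa and P2ry2. In what follows, "called" means an FDR under 0.05 by DESeq2 on the 7 livers, and log2 fold changes with their standard errors are from edgeR.

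**Figure D1:**
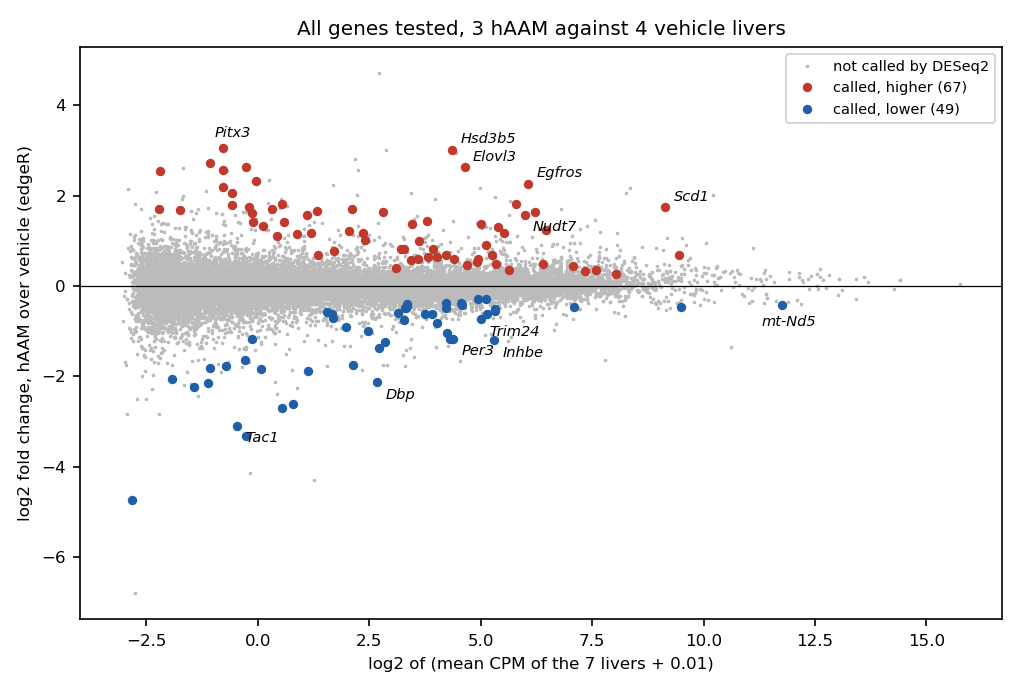
Each point is 1 of the 22018 genes tested, with the log2 of its mean CPM over the 7 livers on the x axis and its edgeR log2 fold change, hAAM over vehicle, on the y axis. The 67 genes called higher by DESeq2 (red) and the 49 called lower (blue) include low-level genes such as Pitx3 and Tac1 as well as abundant ones such as Scd1 and mt-Nd5, and edgeR called none of them.

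The circadian clock list held the largest share of differing genes among the lists of nuclear genes: 12 of its 24 members had an edgeR p under 0.05, 5 higher and 7 lower with hAAM. Of all genes tested, 3.46% were higher and 3.55% lower at that p. The lists were chosen with earlier results of these data known, so this rank is a description and not separate evidence. The liver clock is a feedback loop in which Arntl (BMAL1) with Clock or its relative Npas2 activates the Per and Cry repressors and the output genes Dbp, Tef, Ciart and Nr1d1 through E-box sequences, while the Nr1d receptors repress Arntl and Npas2. In the hAAM livers Npas2 and Arntl were higher, and Dbp, Tef, Ciart, Nr1d1, Nr1d2, Per3 and Bhlhe41 lower. The hour at which each liver was collected is not given in the sources used here.

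Among the activating arm, Npas2 measured 9.25, 3.45 and 8.71 CPM in hAAM replicates 1, 2 and 3, and 2.74, 2.79, 1.71 and 1.58 CPM in vehicle replicates 1, 2, 4 and 5. Every hAAM liver was above every vehicle liver, with a log2 fold change of 1.70 ± 0.36, and control livers had 7.33 to 23.4 CPM. Arntl was at 27.4, 21.0 and 34.7 CPM with hAAM and 14.2, 19.5, 12.4 and 9.85 CPM with vehicle. The groups did not overlap (log2 fold change 0.98 ± 0.24), although hAAM replicate 2 lay close to vehicle replicate 2. Cry1, a repressor that peaks late in the cycle, differed by 0.82 ± 0.19 without overlap. Nfil3, which opposes Dbp at its binding sites, differed by 0.63 ± 0.24 with overlapping groups. Npas2 and Cry1 were called.

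Among the outputs and repressors, Dbp, a transcription factor whose level swings widely over the day, was at 1.28, 2.53 and 2.70 CPM with hAAM and 11.8, 5.48, 11.1 and 9.56 CPM with vehicle. The lowest vehicle liver still had over 2 times the level of the highest hAAM liver, and the log2 fold change was -2.13 ± 0.34. Control livers had 0.439 to 2.14 CPM of Dbp. Per3 was at 9.40, 13.3 and 13.9 CPM with hAAM and 29.9, 20.1, 28.2 and 31.3 CPM with vehicle, a log2 fold change of -1.17 ± 0.19 with no overlap. Ciart, a repressor of the Clock and Arntl pair, was at 2.49, 3.20 and 4.62 CPM against 13.4, 9.31, 7.40 and 5.30 CPM (-1.36 ± 0.34). Nr1d1 was at 6.64, 10.1 and 18.0 CPM against 21.7, 28.9, 24.3 and 30.0 CPM (-1.18 ± 0.31). Dbp, Per3, Ciart and Nr1d1 were called, and Nr1d2 (-0.60 ± 0.18), Tef (-0.64 ± 0.21) and Bhlhe41 (-0.57 ± 0.20) were lower without overlap but not called.

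The other 12 clock genes, among them Clock, Per1, Per2 and Cry2, had p over 0.05. The count of 12 stayed between 11 and 13 without each liver in turn, and was 11 with the near-identical pair kept. The 2 livers left out lay near the vehicle livers for Dbp, at 7.66 CPM in vehicle replicate 3 and 8.38 CPM in hAAM replicate 4, and near the hAAM livers for Npas2, at 6.59 and 6.43 CPM. For the 12 clock genes together, each of them was nearer to the hAAM mean for 6 and nearer to the vehicle mean for 6.

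**Figure D2:**
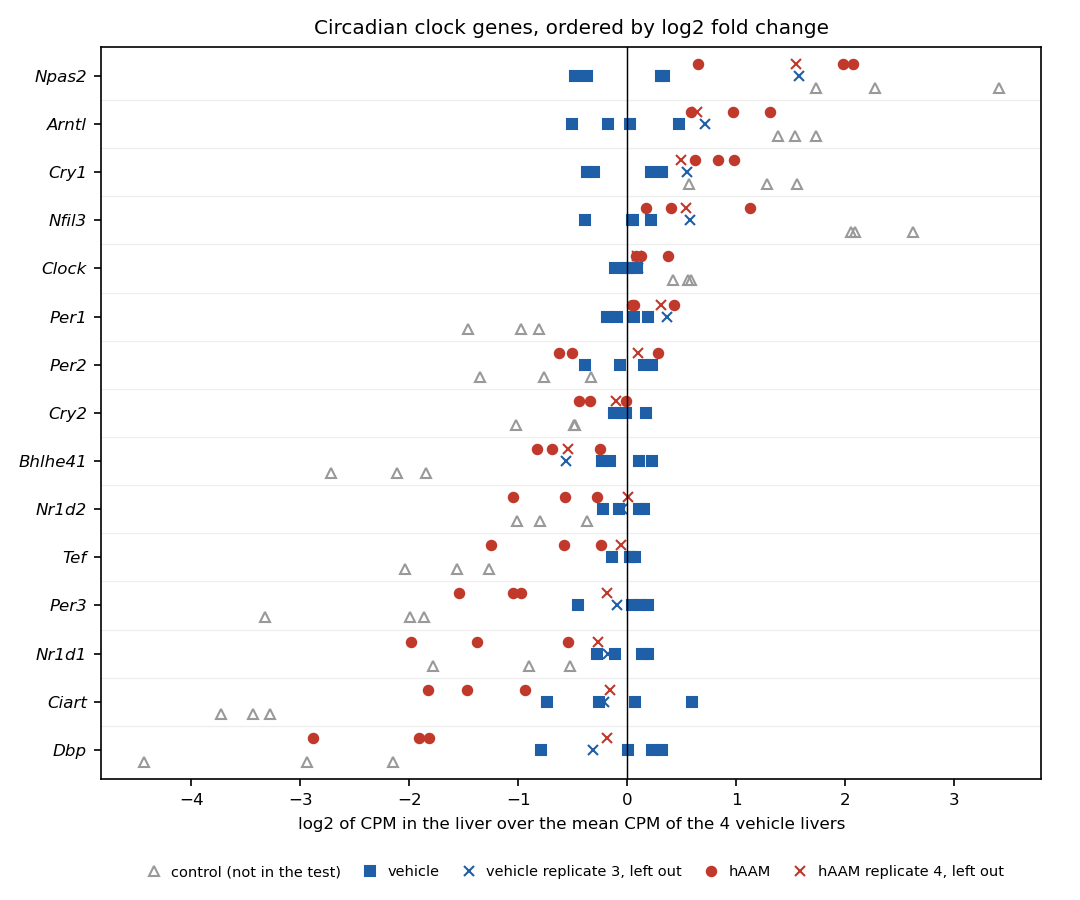
Each row is a circadian clock gene named in the text, ordered by log2 fold change, and each symbol is 1 liver, placed by the log2 of its CPM over the mean CPM of the 4 vehicle livers. The hAAM livers lie right of the vehicle livers for Npas2, Arntl and Cry1 and left of them for Dbp, Ciart, Nr1d1 and Per3, while the left-out livers (crosses) lie with vehicle for Dbp and with hAAM for Npas2.

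The upstream sequences of Ciart and Per3 are shown because both genes were called lower and carry several copies of a clock element just before their start. Promoter sequences from RefSeq (GRCm38.p6) matched 19 of the 24 clock genes and were searched over the 250 bases before each start, on both strands, for the E-box CACGTG bound by Clock and Arntl, for TTATGTAA, the D-box bound by Dbp and Tef, and for CCAAT, a general promoter element. CCAAT stood in 11 of the 19 genes (57.9%) against 37.5% of all, and the E-box stood in 5 of the 19 genes (26.3%) against 6.86% of the 27025 genes in the table, and the D-box in 2 of the 19 (10.5%) against 0.977%. A match is a description and not a bound site. Capitals mark the E-boxes in the sequence of Ciart, which lies at chr3:95882252-95882478 on the minus strand and stops where the annotated gene begins. The letters of the motifs do not overlap one another there.
Ciart: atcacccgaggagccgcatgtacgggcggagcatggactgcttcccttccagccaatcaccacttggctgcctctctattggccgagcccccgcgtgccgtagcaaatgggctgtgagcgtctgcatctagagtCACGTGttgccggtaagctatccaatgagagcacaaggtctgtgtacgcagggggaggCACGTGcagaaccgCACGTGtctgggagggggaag
Capitals mark the D-boxes in the 250 bases before Per3, at chr4:151044666-151044915 on the minus strand.
Per3: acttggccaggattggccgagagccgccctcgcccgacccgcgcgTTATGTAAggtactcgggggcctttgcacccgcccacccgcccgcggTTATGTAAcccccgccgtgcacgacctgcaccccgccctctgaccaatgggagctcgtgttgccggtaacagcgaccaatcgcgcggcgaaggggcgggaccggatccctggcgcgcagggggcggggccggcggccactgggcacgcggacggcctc
Ciart carries 3 E-boxes and Per3 2 D-boxes. Of the 7 clock genes lower with hAAM at p under 0.05 that had a matched promoter, Bhlhe41, Ciart and Tef had the E-box. Of the 4 higher ones with a matched promoter, only Cry1 had it. Dbp, with the largest difference of the list, had neither element in this window.

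Of 26 lipogenesis genes, 8 were higher with hAAM at p under 0.05 and 0 lower, and 24 of 26 had a positive log2 fold change, with a median of 0.31 against 0.0014 for all genes tested. Scd1 (chr19:44394455-44407879), the desaturase that makes monounsaturated fatty acids, was at 1151, 664.7 and 1011 CPM in hAAM livers. Vehicle livers had 310.3, 365.7, 220.5 and 228.1 CPM, so that all hAAM livers were above all vehicle livers (log2 fold change 1.74 ± 0.25). Control livers were far higher, at 6486 to 11269 CPM. The left-out livers had more Scd1 than any of the 7, with 2108 CPM in vehicle replicate 3 and 2240 CPM in hAAM replicate 4, and the log2 fold change was 0.97 with both kept and 0.54 with only the vehicle liver of the pair kept. Scd3, Scd4 and the pseudogene AC123853.3, near-identical copies in the same stretch of chromosome 19, were also called higher, by 1.64 ± 0.26, 1.41 ± 0.25 and 1.72 ± 0.30, and reads of these copies may have been exchanged.

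Elovl3, an elongase of very long chain fatty acids that is not a member of the lipogenesis list and was called, was at 68.0, 30.3 and 45.2 CPM with hAAM and 9.05, 11.6, 3.33 and 6.83 CPM with vehicle. No hAAM liver of the comparison came near the vehicle range, the log2 fold change was 2.63 ± 0.41, and controls had 133 to 446 CPM. The left-out livers lay between the groups, at 17.8 CPM in vehicle replicate 3 and 19.5 CPM in hAAM replicate 4. In the list, Mlxipl, the carbohydrate-responsive activator of lipogenic genes, differed by 0.75 ± 0.19 without overlap, with 137 to 227 CPM in hAAM and 96.8 to 136 CPM in vehicle livers. Lpin1 (1.32 ± 0.43), Fasn, the fatty acid synthase (0.79 ± 0.31), and Pnpla3, a lipid droplet protein measured at under 1 CPM in all 7 livers (1.13 ± 0.42), also had a p under 0.05. Fasn was named after its values were seen. Of the 8 genes of the list only Scd1 was called, and leaving out 1 liver at a time gave between 3 of the 26 (without vehicle replicate 4) and 13 (without hAAM replicate 2) with a p under 0.05. With vehicle replicate 3 kept and hAAM replicate 4 left out, 0 of the 26 lipogenesis genes had a p under 0.05, with hAAM replicate 4 kept in its place 10 did, and with both kept 2 did.

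Nudt7 and Lipc, which also handle lipids, were called in every fit that left out 1 liver. Nudt7 (chr8:114133557-114154739), a peroxisomal enzyme that breaks down coenzyme A, was at 96.0, 82.9 and 128 CPM with hAAM and 43.2, 33.7, 33.7 and 26.2 CPM with vehicle. The lowest hAAM liver was nearly 2 times above the highest vehicle liver (log2 fold change 1.58 ± 0.20), and controls had 394 to 507 CPM. Vehicle replicate 3 was at 106 CPM and hAAM replicate 4 at 117 CPM, both within the hAAM range. Lipc, the hepatic lipase, was at 40.5, 50.1 and 52.9 CPM against 26.5, 30.7, 22.7 and 21.3 CPM (0.92 ± 0.15), with 65.9 to 119 CPM in controls.

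Genes of fatty acid oxidation driven by PPAR-alpha had mostly negative log2 fold changes, a pattern that depended on which livers were used. The median log2 fold change was -0.31 and 36 of 42 genes were negative, with 3 lower and 1 higher at p under 0.05. Without vehicle replicate 5 the median was 0.07, with 25 genes positive and 17 negative, and with hAAM replicate 4 kept and vehicle replicate 3 left out it was -0.03, with 20 positive and 22 negative. Without hAAM replicate 1 it was -0.11. At p under 0.05 there were 3 higher and 4 lower without vehicle replicate 5, 1 and 7 without vehicle replicate 2, 1 and 5 without vehicle replicate 1 or 4, 1 and 6 without hAAM replicate 3, 2 and 1 without hAAM replicate 2, and 1 and 0 without hAAM replicate 1. The summed list stood at 11133 CPM in vehicle replicate 5 against 4588 to 5125 CPM in the other vehicle livers and 4251 to 7604 CPM with hAAM. Angptl4, an inhibitor of lipoprotein lipase, was at 25.9, 32.3 and 33.1 CPM with hAAM and 45.4, 50.2, 42.4 and 128 CPM with vehicle, and Acot4, an acyl-CoA thioesterase, ranged from 7.51 to 13.8 CPM and from 13.5 to 54.4 CPM.

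**Figure D3:**
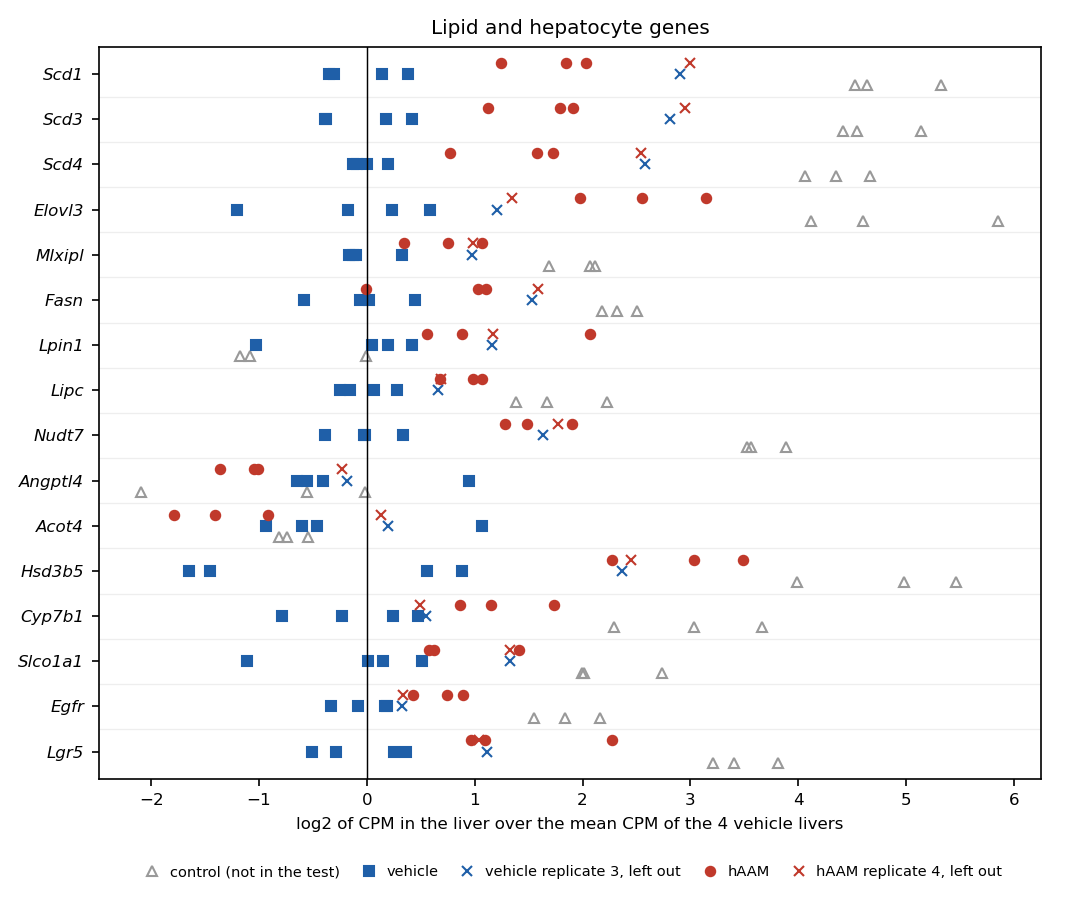
Rows are lipid genes and other genes of hepatocytes, and symbols are single livers placed by the log2 of their CPM over the mean CPM of the 4 vehicle livers. Scd1, Elovl3, Nudt7 and Hsd3b5 separate hAAM from vehicle livers, Fasn does not, and vehicle replicate 3 (blue cross), left out of the test, lies with or beyond the hAAM livers for Scd1 and Nudt7.

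Genes of glucose metabolism had 5 of 32 higher and 0 lower at p under 0.05, with 2 higher without vehicle replicate 1, 3 without vehicle replicate 4 or 5, 2 higher and 1 lower without hAAM replicate 3, and 6 higher and 2 lower without vehicle replicate 2. Pygl, the liver glycogen phosphorylase, was at 261, 212 and 288 CPM with hAAM and 189, 195, 158 and 114 CPM with vehicle, without overlap (0.62 ± 0.20). G6pc, the last enzyme of glucose release, differed by 1.46 ± 0.50 with overlapping groups, since hAAM replicate 2, at 121 CPM, lay within the vehicle range of 39.6 to 140 CPM.

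Several further hepatocyte genes were called higher with hAAM. Hsd3b5, a steroid dehydrogenase of the male mouse liver, was at 41.7, 24.7 and 57.3 CPM with hAAM and 9.38, 7.5, 1.62 and 1.86 CPM with vehicle. The groups did not overlap and the log2 fold change of 3.02 ± 0.63 was carried on a wide spread, with vehicle replicates 4 and 5 lowest and 81.0 to 225 CPM in controls. Cyp7b1, the oxysterol hydroxylase of the alternative bile acid pathway, was at 57.0, 46.8 and 85.6 CPM against 30.3, 21.8, 35.6 and 14.9 CPM (1.30 ± 0.31). Serpina4-ps1 (1.63 ± 0.34), Keg1 (1.38 ± 0.34), Sult2a8 (1.81 ± 0.51) and Abca8a (1.24 ± 0.28) were called as well. Lgr5, the R-spondin receptor of Wnt-active hepatocytes near the central vein, was at 2.25, 2.46 and 5.57 CPM with hAAM and 1.48, 1.38, 0.944 and 0.811 CPM with vehicle (1.57 ± 0.37), against 10.7 to 16.2 CPM in controls.

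Egfr, the receptor of EGF family growth factors that drive hepatocyte division, was at 924.8, 743.6 and 1026 CPM with hAAM and 623.1, 441.1, 629.0 and 523.0 CPM with vehicle, without overlap (0.69 ± 0.17), and at 1626 to 2473 CPM in controls. Egfros (chr11:16815431-16830702, minus strand), an antisense transcript within Egfr, was at 96.8, 101 and 169 CPM against 17.9, 14.7, 30.8 and 38.1 CPM. Its log2 fold change of 2.27 ± 0.36 was larger than that of Egfr itself. The sources used here do not state whether counting used strand, so reads of Egfr and of Egfros cannot be told apart with certainty. Nat8, an acetyltransferase that completes the mercapturate form of glutathione conjugates, was at 13.9, 10.5 and 12.5 CPM against 6.07, 6.30, 7.60 and 7.83 CPM (0.82 ± 0.14), close to the controls at 8.86 to 16.0 CPM. Its neighbours Nat8f3 (2.06 ± 0.33) and Nat8f7 (2.63 ± 0.38) on chromosome 6 were also called, at levels under 3 CPM, and are close copies that may exchange reads.

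The lists of drug metabolism, bile acids, hepatocyte zones and plasma proteins changed with hAAM replicate 3. Of 38 cytochromes P450 and related genes, which hold the enzymes that activate APAP, 31 had a positive log2 fold change (median 0.52). At p under 0.05 there were 3 higher and 2 lower, against 3.46% and 3.55% of all genes tested. The summed level of the P450 list was 4245, 3834 and 10236 CPM with hAAM and 3634 to 5209 CPM with vehicle. Only hAAM replicate 3 thus lay above the vehicle livers, near the controls at 10603 to 14033 CPM. Without that liver the median was -0.24, with 10 positive and 28 negative. Pericentral genes likewise had a median of 0.41 with it and -0.05 without it, bile acid genes 0.39 and 0.0057, and periportal genes 0.17 and -0.12. Leaving out 1 liver at a time gave 2 to 7 P450 genes with a p under 0.05, in either direction, the lowest without vehicle replicate 1 and the highest without hAAM replicate 1. Among single P450 genes Cyp2j6 (0.52 ± 0.12) and Cyp2j5 (0.50 ± 0.20), epoxygenases of arachidonic acid, were higher without overlap, while Cyp2j9 (-0.79 ± 0.26) was lower with overlapping groups, and none of the 38 was called. Complement and coagulation genes had 37 of 43 positive, with 3 higher and 1 lower at p under 0.05, C6 (0.62 ± 0.20) and C8b (0.67 ± 0.25) of the terminal complex among those higher. There were 7 higher without hAAM replicate 1 or 2 and 2 without hAAM replicate 3 or vehicle replicate 5, and the median went from 0.27 to 0.03 without hAAM replicate 3.

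Several transcriptional regulators were called lower with hAAM. Trim24, a nuclear receptor co-regulator of hepatocytes, was at 24.1, 22.9 and 22.8 CPM with hAAM and 36.3, 41.4, 35.8 and 40.6 CPM with vehicle. The hAAM livers lay close together below all vehicle livers, and the log2 fold change of -0.73 ± 0.08 had the smallest p of the edgeR fit across all genes, 2.1e-05. Control livers had 24.9 to 31.9 CPM, and the left-out livers lay in between at 29.0 CPM (vehicle replicate 3) and 27.3 CPM (hAAM replicate 4). Nr2f2 (COUP-TFII), a nuclear receptor of endothelium and mesenchyme as well as hepatocytes, was at 32.5, 32.8 and 30.7 CPM against 43.6, 41.6, 47.7 and 48.7 CPM (-0.51 ± 0.08). Hes1, a Notch target, was lower by 0.82 on the log2 scale, at 12.9, 9.42 and 11.5 CPM against 15.2 to 23.5 CPM. Onecut1 (HNF6) was higher, at 35.0, 55.1 and 68.6 CPM against 12.3 to 31.1 CPM (1.30 ± 0.35), and was not called. Of the 27 hepatocyte transcription factors, 2 were higher and 3 lower at p under 0.05, and without vehicle replicate 1 or 2 or hAAM replicate 2 there were 1 and 2.

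Other genes lower without overlap and called were Arsa, the lysosomal arylsulfatase A (-0.55 ± 0.09), P2ry2, a receptor for extracellular ATP and UTP (-0.63 ± 0.11), and Nt5e, the CD73 enzyme that makes adenosine (-0.74 ± 0.14). P2ry2 was at 9.78, 10.1 and 10.8 CPM with hAAM and 18.0, 14.7, 16.2 and 14.1 CPM with vehicle. Nt5e was at 7.78, 6.39 and 6.83 CPM against 11.8, 9.89, 11.1 and 13.9 CPM. Neither overlapped, as the rule that named them required, and controls were at 7.73 to 14.7 CPM and 6.71 to 9.14 CPM. Pkdrej, Chpf2, Znhit2 and Herc3 were lower by 0.41 to 0.90 on the log2 scale. Inhbe, a hepatokine of the activin family, was at 17.8, 25.8 and 24.3 CPM against 44.2, 45.9, 35.0 and 81.5 CPM (-1.20 ± 0.29). Tac1, the substance P precursor, was at 0.129 to 0.136 CPM against 0.266 to 2.36 CPM (-3.10 ± 0.76). Muc3, Efr3b and the gene model Gm47117 were called with groups that overlapped. The other genes with the smallest p among those higher were A2ml1, a protease inhibitor of the alpha-2-macroglobulin family (0.60 ± 0.08), the pseudogene Gm15711 (1.23 ± 0.18), Ablim3, an actin-binding protein (0.60 ± 0.10), and ENSMUSG00000118631 (1.43 ± 0.23), which has no symbol in the annotation used.

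**Figure D4:**
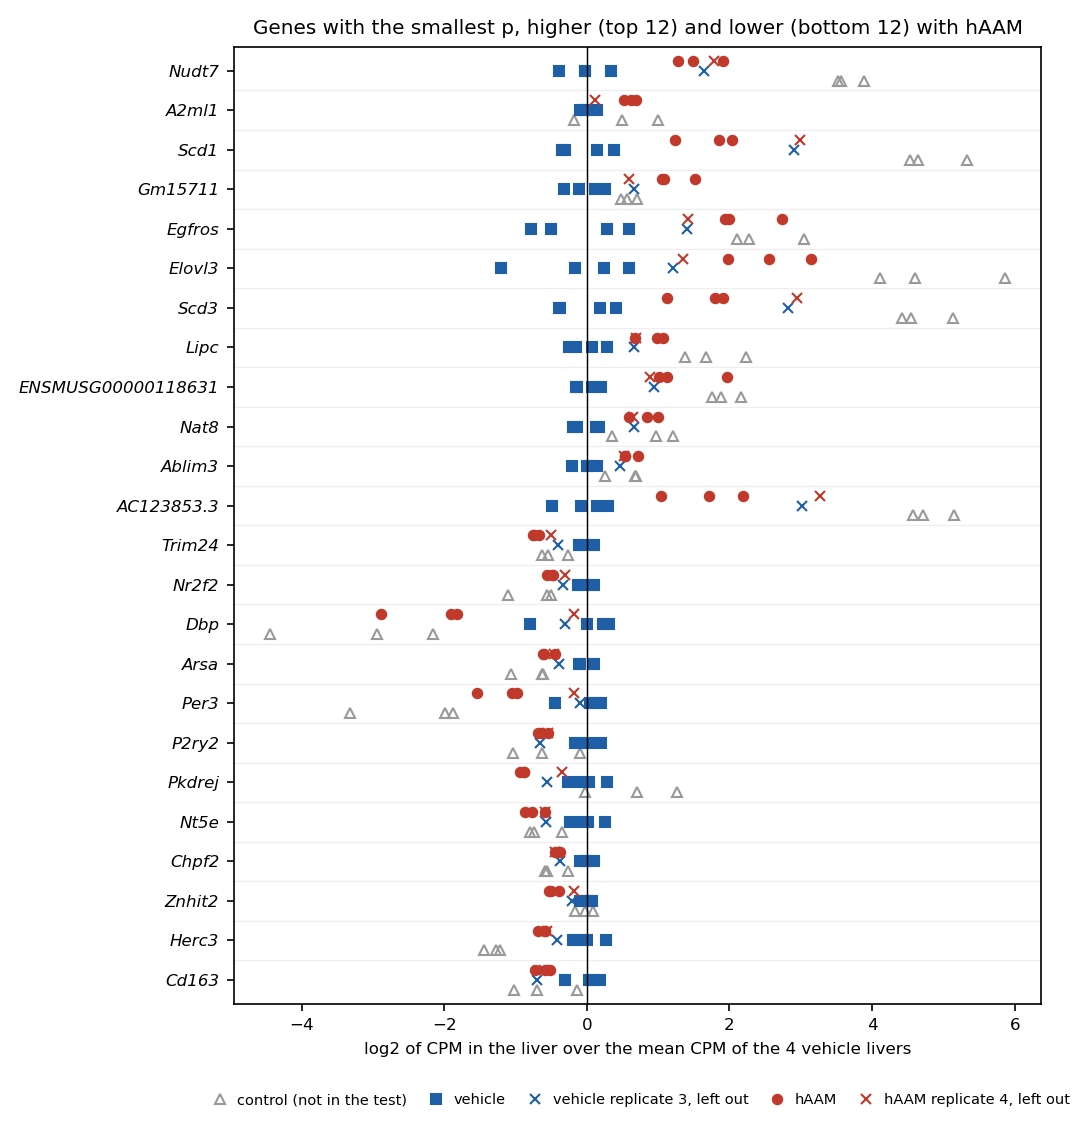
The 12 genes higher and the 12 lower with the smallest edgeR p, among genes with a mean of at least 1 CPM and no overlap, are drawn with 1 symbol per liver, placed by the log2 of its CPM over the mean CPM of the 4 vehicle livers. Groups do not overlap because the rule required it. Vehicle replicate 3 (blue cross) was nearer to the hAAM mean for 19 of the 24 genes and hAAM replicate 4 (red cross) for 18.

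For the 116 called genes, where the left-out livers had no part in the choice of genes, vehicle replicate 3 was nearer to the hAAM mean for 64 and nearer to the vehicle mean for 52. hAAM replicate 4 was nearer to the hAAM mean for 66 and to the vehicle mean for 50. For 32 and 31 of the 116 genes these livers fell within the range of the hAAM livers, and for 27 and 28 within that of the vehicle livers.

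Few macrophage and inflammatory genes passed the test. Cd163, the haemoglobin scavenger receptor of resident and alternatively activated macrophages, was lower with hAAM, at 29.1, 27.6 and 25.1 CPM against 43.0, 42.5, 47.2 and 33.5 CPM (-0.61 ± 0.12), with 20.4 to 37.9 CPM in controls. It was called and did not overlap, while the other 7 Kupffer cell markers had p over 0.05, and the summed Kupffer list overlapped at 277 to 342 CPM with hAAM and 253 to 399 CPM with vehicle. Irf1, an interferon-induced transcription factor, was called lower, at 14.5, 15.4 and 15.8 CPM against 18.2 to 23.6 CPM (-0.48 ± 0.10). Cxcl1, a neutrophil-attracting chemokine, was higher at 64.4, 49.2 and 56.1 CPM against 26.0, 34.8, 46.6 and 27.7 CPM (0.74 ± 0.20) and was the only 1 of 34 chemokines and cytokines with a p under 0.05. Socs3, a feedback inhibitor of IL-6 signalling, was lower (-0.61 ± 0.19) with overlapping groups. Of 22 genes of alternative macrophage activation, the list to which Cd163 also belongs, 3 were higher and 1, Cd163, lower at p under 0.05 (median 0.03). Cd36, a scavenger receptor for lipids and apoptotic cells, was at 66.6, 60.1 and 74.9 CPM with hAAM and 56.1, 40.3, 58.1 and 45.4 CPM with vehicle, without overlap (0.43 ± 0.14). Cd209a, a lectin of dendritic cells, differed by 1.03 ± 0.32 without overlap at under 1 CPM, and Gpnmb, a glycoprotein of lipid-laden macrophages, by 1.09 ± 0.41 with overlapping groups. None of these 3 was called. Phagocytosis and scavenging genes had 2 of 38 higher and 2 lower, near the background in both directions. The summed markers of monocytes and recruited macrophages overlapped (284 to 559 CPM with hAAM, 244 to 550 CPM with vehicle), as did those of neutrophils. Those of T and NK cells, at a few CPM in all livers, had all 8 genes positive (median 0.51) but a median of -0.12 without hAAM replicate 3.

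Stress genes were mixed. Of all genes tested, 3.46% were higher and 3.55% lower at p under 0.05. Of 24 heat shock chaperones, 6 were higher and 1 lower at p under 0.05. Hspa8, the constitutive HSC70 chaperone, was at 867.9, 1277 and 956.4 CPM with hAAM and 573.8, 593.3, 747.7 and 784.9 CPM with vehicle (0.61 ± 0.18), and Dnaja1, its co-chaperone, differed by 0.38 ± 0.12. Hspa1a, the inducible HSP70, named after its values were seen, was lower (-1.22 ± 0.48), at 17.5, 49.5 and 16.2 CPM against 40.5 to 110 CPM. Under scaling by library size alone 1 chaperone was higher and 1 lower, without hAAM replicate 2 there were 2 and 2, and without hAAM replicate 3 there were 11 and 0. Of the unfolded protein response, Ern1, the IRE1-alpha sensor that splices Xbp1, was called higher at 99.8, 95.9 and 107 CPM against 71.7, 68.0, 80.2 and 66.3 CPM (0.49 ± 0.09), and Xbp1 differed by 0.21 ± 0.09 without overlap. Of the 31 genes of this list 3 were higher and 0 lower at p under 0.05, with 1 higher without vehicle replicate 2 or 4 or hAAM replicate 1, and 9 without hAAM replicate 3. Among 32 immediate early and stress kinase genes, 7 were higher and 3 lower. Nr4a1 reached 117 CPM in hAAM replicate 3 against 9.70 and 3.71 CPM in the other hAAM livers and 3.78 to 8.15 CPM with vehicle, and Fosb 22.1 CPM against 0.739 to 3.93 CPM and 0.447 to 2.58 CPM. The list's counts moved with several livers: 2 were higher and 3 lower without hAAM replicate 3, 2 and 2 without vehicle replicate 1 or 4, 4 and 1 without vehicle replicate 5, and 12 and 4 without hAAM replicate 2. Of 35 glutathione and NRF2 genes, 1 was higher (Gstt1, 0.48 ± 0.15) and 4 were lower, with Osgin1 (-0.84 ± 0.24) and Srxn1 (-0.72 ± 0.27), which repairs oxidised peroxiredoxins, not overlapping. Of these genes 1 was lower without vehicle replicate 4 or 5, 7 without hAAM replicate 1, and 3 were higher and 1 lower without hAAM replicate 2.

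All 13 protein genes of the mitochondrial genome had a negative log2 fold change (median -0.36). Of these, 6 were lower with hAAM at p under 0.05, against 3.55% of all genes tested. For 10 the hAAM livers lay wholly below the vehicle livers, against 3.99% of all genes tested. The 40 nuclear genes for respiratory chain subunits had 34 positive, a median of 0.12 and 0 with a p under 0.05. These 13 genes were added as a group after the values were seen. mt-Nd5, a subunit of complex I, was at 2876, 2777 and 3084 CPM with hAAM and 3506, 3975, 3979 and 4190 CPM with vehicle (-0.43 ± 0.16), against 4316 to 4708 CPM in controls. mt-Nd6, the only protein gene on the light strand, was lower by 0.46 on the log2 scale, and both were called. The share of all counts on mitochondrial genes was 4.12% to 4.47% with hAAM and 4.84% to 6.14% with vehicle, and the part of this share in the result was not tested. Without 1 liver at a time, between 1 (without hAAM replicate 1 or 2 or vehicle replicate 4) and 9 (without hAAM replicate 3) of the 13 had a p under 0.05. With the near-identical pair kept 2 of the 13 did, with only its hAAM liver kept 1 did, and with only its vehicle liver kept 10 did.

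Cell division genes were not separated by the test. No mitosis gene of 35 had a p under 0.05, although 33 were positive (median 0.29), and the median was -0.15 without hAAM replicate 1, whose summed mitosis genes were highest at 226 CPM against 136 and 72.7 CPM in the other hAAM livers and 56.8 to 172 CPM with vehicle. Of 39 DNA replication genes, 1 was higher. The matrix and stellate cell list and the lysosome list each had 1 gene higher and 0 lower, among 35 and 32 genes. Sox9, a factor of bile duct cells and of hepatocytes near the portal tract, was lower at 33.6, 29.8 and 16.9 CPM against 33.8 to 46.9 CPM (-0.68 ± 0.23), and summed cholangiocyte markers overlapped, at 84.8 to 250 CPM with hAAM and 120 to 324 CPM with vehicle.

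**Figure D5:**
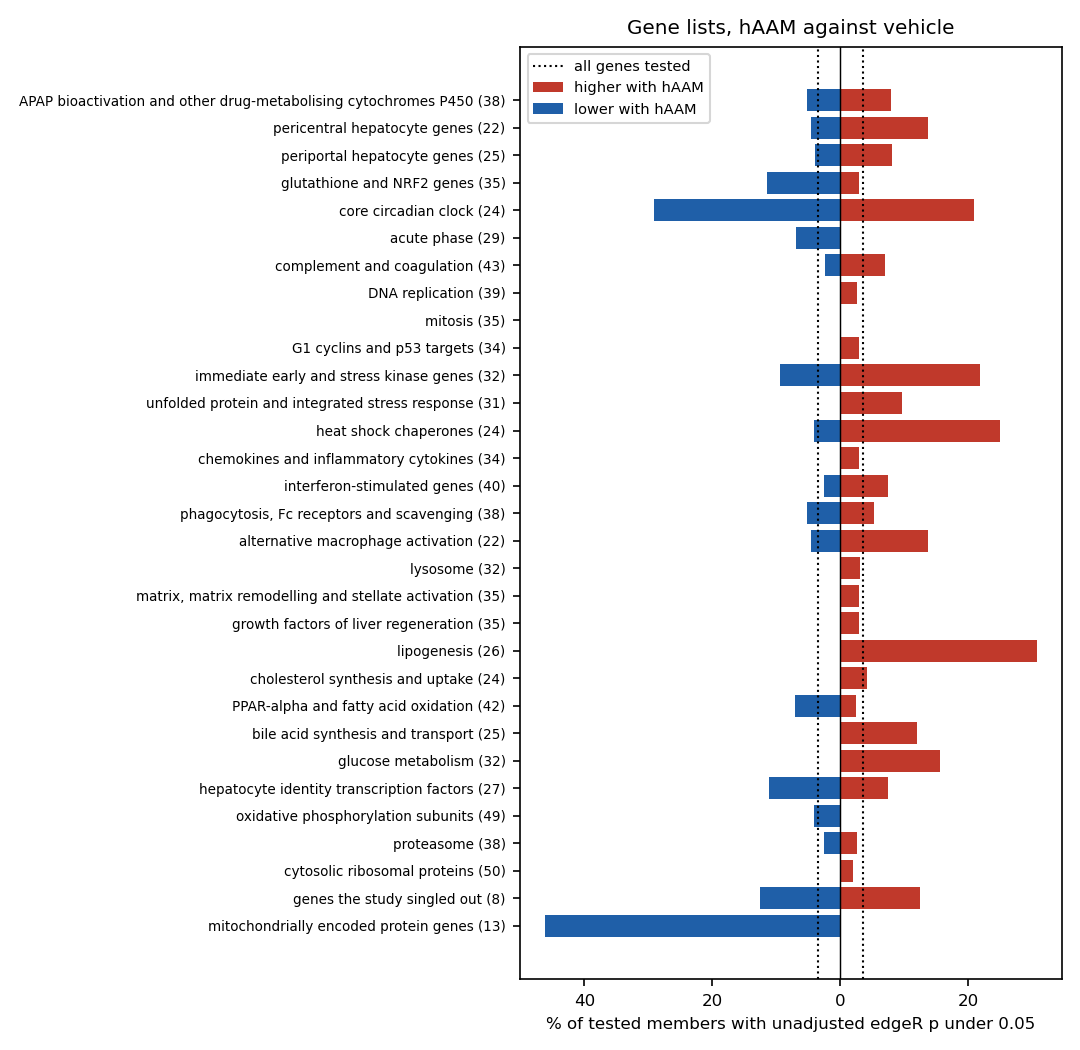
Bars give the percentage of tested members of each list with an unadjusted edgeR p under 0.05, to the right for genes higher and to the left for genes lower with hAAM, with the number tested in brackets and dotted lines at the 3.46% and 3.55% of all genes. The circadian clock extends in both directions, lipogenesis only to the right, the mitochondrially encoded genes only to the left, and mitosis has no bar.

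The study singled out 8 genes on these libraries for repair, clearance and immune response, so their direction is not independent evidence. C1s1, a complement protease, was at 271, 305 and 332 CPM with hAAM and 229, 259, 228 and 184 CPM with vehicle (0.43 ± 0.14), and F2rl1, a protease-activated receptor, was at 0.547, 0.517 and 0.213 CPM against 0.705, 0.644, 1.08 and 2.01 CPM (-1.39 ± 0.49). Both had groups that did not overlap and neither was called, with unadjusted p of 0.015 and 0.022 in the edgeR fit across all genes. For the other 6 the groups overlapped: Cfi differed by 0.26 ± 0.18, Ndfip1 by 0.12 ± 0.13, Foxj1 by 0.11 ± 0.44, Phb by 0.08 ± 0.08, Cd38 by -0.12 ± 0.09 and Ada by -0.30 ± 0.22. None of these 6 had an edgeR p under 0.05.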

How the data were processed

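Liver RNA of 12 mice was sequenced after ribosomal RNA depletion with a directional kit. The authors trimmed reads with Cutadapt 4.6, aligned them with STAR 2.7.1a to GRCm38.100 and counted them with summarizeOverlaps, and the deposited values are raw counts per gene, not normalised. The counting mode and use of strand are not given in the sources used here. Symbols for 24128 of 24187 genes came from an annotation table (GENCODE M21, GRCm38).

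Of these genes, 22018 passed filterByExpr over the 7 livers and were tested with edgeR 4.0.16 (quasi-likelihood, TMM factors, Benjamini-Hochberg adjustment) in R 4.3.3. DESeq2 1.42.0 (the study used DESeq2), limma 3.58.1 (voom), other scalings and filters, the control livers, the left-out livers, a replicate block and leaving out each liver were the alternatives. CPM were TMM-scaled over the 12 libraries. The lowest total count of the 7 livers was 47391650. How far depth or the number of animals limits precision was not tested. Samples were grouped by their labels, 1 mouse each.

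The livers and gene lists were chosen with earlier results of these data known. Named genes had a mean of at least 1 CPM and no overlap (the 12 smallest p in each direction), were members of a list with p under 0.05 (up to 4 by smallest p, otherwise the 2 with the highest mean CPM), were among the 10 smallest DESeq2 FDRs in a direction, or were the 8 genes the study singled out. A few genes of the lists are not reported here by name. Promoter sequences are from RefSeq (GRCm38.p6).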

Additional observations from a re-analysis of the deposited data

Results flagged for a closer look

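Among the 4 vehicle livers, 146 values were tested for a liver standing apart (Dixon's ratio of the gap to the nearest liver over the range, at its 95% critical value), and 12 were found. Chance gives this in about 5% of groups of 4.

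Vehicle replicate 5 accounted for 8 of the 12. Its summed B lineage markers were at 93.7 CPM against 5.97 to 6.98 CPM in the other vehicle livers, its red cell and platelet markers at 2041 CPM against 285 to 533 CPM, and its genes of PPAR-alpha and fatty acid oxidation at 11133 CPM against 4588 to 5125 CPM. Angptl4 was at 128 CPM in it against 42.4 to 50.2 CPM and Acot4 at 54.4 CPM against 13.5 to 18.8 CPM. Mafk, a small partner of NRF2, was at 21.9 CPM against 16.5 to 17.4 CPM, and Adra1a, an alpha-1 adrenergic receptor, at 10.3 CPM against 5.80 to 6.30 CPM. Cyp2j6 was the only value lowest in it, at 29.8 CPM against 37.9 to 38.2 CPM. What part this liver's blood cell markers have in its other values was not tested.

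Vehicle replicate 4 stood apart in 3 values. Its summed cholangiocyte markers were at 324 CPM against 120 to 154 CPM, its T and NK cell markers at 1.64 CPM against 2.37 to 2.42 CPM, and Sult2a8, a sulfotransferase of hepatocytes, at 13.1 CPM against 30.9 to 31.7 CPM. Mlxipl was at 136 CPM in vehicle replicate 2 against 96.8 to 101 CPM in the others, just below the lowest hAAM liver at 137 CPM.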

How the results depend on the processing

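The count of 0 genes at an FDR under 0.05 was also 0 with limma-voom, robust edgeR, other scalings and filters, the controls added, either or both left-out livers kept, and each liver left out. It was 116 with DESeq2, 88 with DESeq2 and the 3 control livers, 1 with DESeq2 on 9 injured livers, and 58 to 174 with DESeq2 leaving out 1 liver (the 2 ends without vehicle replicate 5 and hAAM replicate 3, and 66, 89, 88, 100 and 127 without vehicle replicates 1, 2 and 4 and hAAM replicates 1 and 2). The hAAM and vehicle groups share only the replicate numbers 1 and 2 in this comparison, whose deviations correlated by -0.0003 and -0.28 across genes, so the numbers cannot be shown to pair mice. With a replicate block edgeR called 109 genes and gave 2820 at p under 0.05, and with the controls and the block it called 0. Library size alone turned the split at p under 0.05 into 505 higher and 857 lower, with a median log2 fold change over all genes of -0.05. Directions reversed for Phb under the block (-0.0036), Cfi under the block (-0.10), Ndfip1 under the block (-0.12, with controls -0.042) and without hAAM replicate 3 (-0.039, by DESeq2 -0.044, against up to 0.21 without hAAM replicate 1), Foxj1 without vehicle replicate 1 (-0.06, by DESeq2 -0.059), vehicle replicate 2 (-0.059, by DESeq2 -0.052) or hAAM replicate 2 (-0.092, by DESeq2 -0.076, against up to 0.48 without vehicle replicate 4), and Pnpla3 with vehicle replicate 3 kept (-0.60). Nr4a1 and Fosb rest on hAAM replicate 3, without which their log2 fold changes were 0.24 and 0.86. The causes were not tested.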

Other observations

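All 10 dendritic cell and MHC class II markers had a positive log2 fold change (median 0.40), 1 of them at p under 0.05, but the summed level was 115 CPM in hAAM replicate 3 and 67.6 and 66.2 CPM in the other hAAM livers, against 57.4 to 68.5 CPM with vehicle, and without hAAM replicate 3 the median was 0.09. All 10 sinusoidal endothelial markers had a negative one (median -0.17), 1 at p under 0.05, with sums of 404 to 528 CPM against 513 to 571 CPM. Of all genes tested, 3.46% were higher and 3.55% lower at p under 0.05. Of 40 interferon-stimulated genes 3 were higher and 1 lower at p under 0.05, and Irf1 was the only one called by DESeq2. The median of these 40 genes was 0.07, and -0.14 without hAAM replicate 2, when 32 were negative, 0 higher and 5 lower at p under 0.05. With library size alone or without vehicle replicate 5, 0 were higher and 1 lower. Of 29 acute phase genes 0 were higher and 2 lower, and 2 higher and 6 lower without hAAM replicate 3.

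Genes typical of pancreas, gut or fat, which can be carried over at dissection, summed to 106 to 113 CPM in the hAAM livers and 55.1 to 89.5 CPM in the vehicle livers, without overlap, with 25.8 to 43.4 CPM in controls. Of the 4 that passed the low-count filter 1 was higher at p under 0.05. Their part in the other differences was not tested. Cytosolic ribosomal protein genes, a group translated together, had 41 of 50 positive log2 fold changes with a median of 0.03, and the median was -0.01 when only library size was used for scaling.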
